A study of Homo sapiens with 96 samples.

Results

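The 6 cystatin genes CST1, CST2, CST3, CST4, CST6 and CSTB were followed on 96 Affymetrix arrays of the human breast cancer line MDA-MB-231. They were selected by gene symbol from the 11940 named genes of the table, and each was read by 1 of the 22406 probe sets tested (206224_at for CST1, 208555_x_at for CST2, 201360_at for CST3, 206994_at for CST4, 206595_at for CST6 and 201201_at for CSTB). A probe set is a group of short oligonucleotides designed against a transcript. The genes were picked because CST1 and CST4 fell more in 3D than in 2D when the MEK inhibitor U0126 was set against its vehicle, and the untreated arrays over time were also used in that choice. Values from those contrasts are therefore given as a description with no test.

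Cystatins inhibit cysteine proteases of the papain family, among them the lysosomal cathepsins, by lodging in the active site as a reversible stopper. CST1 (cystatin SN), CST2 (cystatin SA) and CST4 (cystatin S) are secreted salivary cystatins with very similar sequences, whereas CST3 (cystatin C) is secreted by nearly all cells. CST6 (cystatin E/M) is a secreted epithelial cystatin that also inhibits legumain, and CSTB (stefin B) stays inside the cell. In the RefSeq annotation CST3, CST4, CST1 and CST2 follow each other as neighbouring protein-coding genes on chromosome 20, CST6 is on chromosome 11 and CSTB on chromosome 21.

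All cells had been grown to 80% confluence in full serum and kept in low serum for 24 h. The arms after 0 h were untreated control, 10 ng/ml EGF, EGF after 30 min with the vehicle DMSO (DMSO-EGF), and EGF after 30 min with 10 uM U0126, each sampled at 0.5, 1, 4, 8, 12, 24 and 48 h. At 0 h there were control, DMSO and U0126 arrays without EGF. MEK is the kinase that activates ERK, and EGF is a growth factor that signals through the same route. The 2D arrays came from series 2D03 and 2D04 (32 each) and the 3D arrays from series 3D04 (32), so 2D groups had 2 arrays, 1 per series, and 3D groups had 1, with 4 and 2 arrays for the control at 0 h. Culture and series cannot be told apart for 3D, the support of the 3D culture is not given in the sources used here, and every array is from this 1 cell line.

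Values were on a presumed log2 scale, centred for each probe set on an unstated reference, so a value of 0 is no absence and values of different genes cannot be ranked. For the same reason the centred values of luminal, leukocyte and fibroblast markers cannot show whether a marker is absent. With U0126 in the late window of 3D, 0 of 17 luminal, 1 of 7 leukocyte and 1 of 11 fibroblast probe sets passed, both higher, against 34.7% of all probe sets there. Windows were early (0.5 and 1 h), middle (4, 8 and 12 h) and late (24 and 48 h). The ERK phosphatase DUSP6, used as a check of the inhibitor, was lower with U0126 than with DMSO-EGF in the late window, by log2 -2.60 (SE 0.21) in 2D and -2.40 (SE 0.30) in 3D. A pair of 2D03 arrays, U0126 at 8 and 12 h, had a low 5-prime against 3-prime actin signal, a sign of RNA quality (-1.26 and -1.08, against -0.36 to 0.31 on the other 94 arrays).

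CST1 and CST4 were among the most variable probe sets of the whole table. CST1 had an SD of 1.40 over the 96 arrays, rank 22 of 22406, and CST4 an SD of 1.12, rank 46. CST2 ranked 495 (SD 0.65) and CST3 5253 (SD 0.29). CSTB, at rank 14799 (SD 0.15), and CST6, at rank 18609 (SD 0.12), varied little. The spread of CST1 lay mostly in 3D, where it ran from -0.50 to 5.53 with a median of 1.92, against -0.59 to 2.27 with a median of -0.20 over 64 arrays in 2D. CST4 ran from 0.02 to 4.94 (median 1.22) in 3D and from -0.72 to 1.65 (median -0.16) in 2D.

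In 3D, CST1 was highest at 48 h in each arm without the inhibitor. The control arrays stood at 1.42, 1.89, 2.08, 2.33, 2.76, 3.69 and 5.37 from 0.5 to 48 h. The EGF arrays stood at 1.62, 1.35, 1.66, 1.67, 2.14, 3.55 and 5.53, and the DMSO-EGF arrays at 1.55, 2.11, 2.60, 2.38, 3.11, 3.83 and 5.23. The 3 arms ended within 0.30 log2 of each other, and the control arm alone was higher at every step. The U0126 arrays stood at 1.67, 1.95, 1.95, 1.01, 1.25, 1.56 and -0.50, so that this arm lay near the others for the first hour, lay below all of them from 8 h on and at 48 h lay below its own 0 h array (1.47). These are bulk samples, in which fewer cells that make a transcript and less of it per cell cannot be told apart.

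CST4 was likewise highest at 48 h in each arm without the inhibitor. Its 3D control arrays stood at 1.19, 1.13, 1.36, 1.69, 1.45, 2.59 and 4.78 and its EGF arrays at 1.13, 0.92, 0.75, 1.24, 1.53, 3.28 and 4.94. The DMSO-EGF arrays stood at 1.44, 1.72, 1.40, 1.57, 2.22, 3.39 and 4.27. With U0126 the values were 1.00, 1.19, 1.20, 0.47, 0.63, 0.93 and 0.02, again below every other arm from 8 h on. CST2 rose mostly after 12 h. Its arrays without the inhibitor lay between 0.03 and 1.05 from 4 to 12 h, and at 24 and 48 h it stood at 1.71 and 3.08 in control, 1.67 and 3.28 in EGF and 1.76 and 2.66 in DMSO-EGF, but at 0.20 and -0.24 with U0126.

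**Figure D1:**
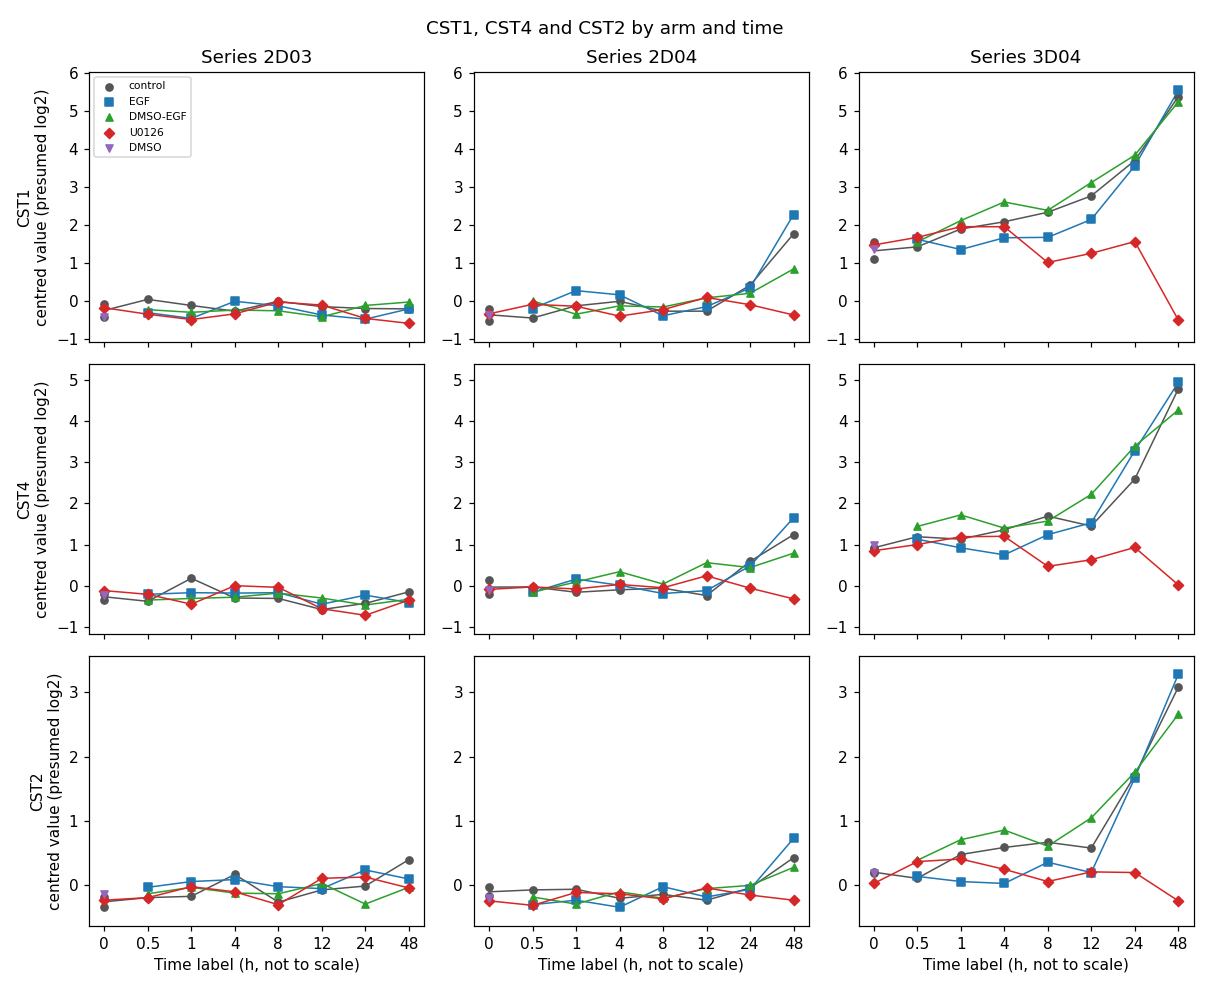
Centred value (presumed log2, y axis) of CST1, CST4 and CST2 against the time label in hours (x axis, not to scale) in the 3 series, with 1 point per array and lines through the mean at each time, coloured by arm. In series 3D04 the control, EGF and DMSO-EGF arms each stand highest at 48 h and the U0126 arm does not, with CST1 at 5.23 to 5.53 in the former and -0.50 in the latter.

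In 2D the series differed. In 2D03, CST1 stayed between -0.59 and 0.04 and CST4 between -0.72 and 0.18 on all 32 arrays, the lowest being the 48 h U0126 array for CST1 and the 24 h U0126 array for CST4. In 2D04 both lay low up to 12 h, apart from CST4 at 0.56 on the 12 h DMSO-EGF array, and then climbed without the inhibitor. CST1 stood at 0.41 and 1.76 (24 and 48 h) in control, 0.34 and 2.27 in EGF, 0.20 and 0.84 in DMSO-EGF, and -0.10 and -0.37 with U0126. CST4 in 2D04 stood at 0.59 and 1.24 in control, 0.48 and 1.65 in EGF, 0.44 and 0.79 in DMSO-EGF, and -0.06 and -0.32 with U0126. The U0126 arrays thus lay below the other arms at both late times in 2D04 as they did in 3D. CST2 reached 0.43 in control and 0.73 in EGF at 48 h in 2D04, and in 2D03 it lay between -0.33 and 0.40.

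Set against DMSO-EGF at the same time, the U0126 difference of CST1 in 3D was 0.12 at 0.5 h, -0.16 at 1 h, -0.65 at 4 h, -1.37 at 8 h, -1.86 at 12 h, -2.27 at 24 h and -5.73 at 48 h. That of CST4 was -0.44, -0.53, -0.20, -1.10, -1.59, -2.46 and -4.25, and that of CST2 -0.02, -0.30, -0.61, -0.55, -0.84, -1.56 and -2.90. All 3 differences were largest at 48 h. In 2D the difference of CST1 at 24 and 48 h was -0.34 and -0.56 in 2D03 and -0.30 and -1.21 in 2D04, and that of CST4 was -0.25 and -0.02 in 2D03 and -0.50 and -1.11 in 2D04. CST2 stood at 0.42 and -0.01 in 2D03 and at -0.15 and -0.51 in 2D04.

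As window means from the fits, CST1 in 3D stood 16.0-fold lower with U0126 in the late window (log2 -4.00, SE 0.60) and 2.45-fold lower in the middle window (-1.29, SE 0.49). CST4 stood 10.2-fold lower late (-3.35, SE 0.46) and 1.95-fold lower in the middle window (-0.96, SE 0.38), and CST2 4.69-fold (-2.23, SE 0.29) and 1.59-fold lower (-0.67, SE 0.24). The middle-window values depended on the comparator. Against the EGF arrays in place of DMSO-EGF they were -0.42 (SE 0.49) for CST1, -0.41 (SE 0.38) for CST4 and -0.02 (SE 0.24) for CST2. In the late window of 2D the means were -0.60 (SE 0.31) for CST1, -0.47 (SE 0.30) for CST4 and -0.06 (SE 0.11) for CST2. The late 3D minus 2D difference was thus -3.40 (SE 0.54) for CST1, -2.88 (SE 0.41) for CST4 and -2.17 (SE 0.26) for CST2. CST1 had the second largest such difference in size of all 22406 probe sets and CST4 the fifth, a rank that the choice of these genes fixes. The level without the inhibitor differed between the cultures. At 48 h in 3D, CST1 stood at 5.23 with DMSO-EGF and -0.50 with U0126, and CST4 at 4.27 and 0.02. On all 2D03 arrays CST1 lay between -0.59 and 0.04 and CST4 between -0.72 and 0.18. Whether low levels in 2D limited the fall there was not tested. In limma, 34.7% of all probe sets passed in the late window of 3D, 10.3% in that of 2D and 8.48% in the difference between cultures. The 2D count was 2316, or 4670 with a replicate block. The late 3D means rest on a pair of unlike times. Without the 48 h U0126 array CST1 was -2.13, CST4 -2.11 and CST2 -1.36, and without the 24 h U0126 array they were -5.87, -4.60 and -3.10.

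**Figure D2:**
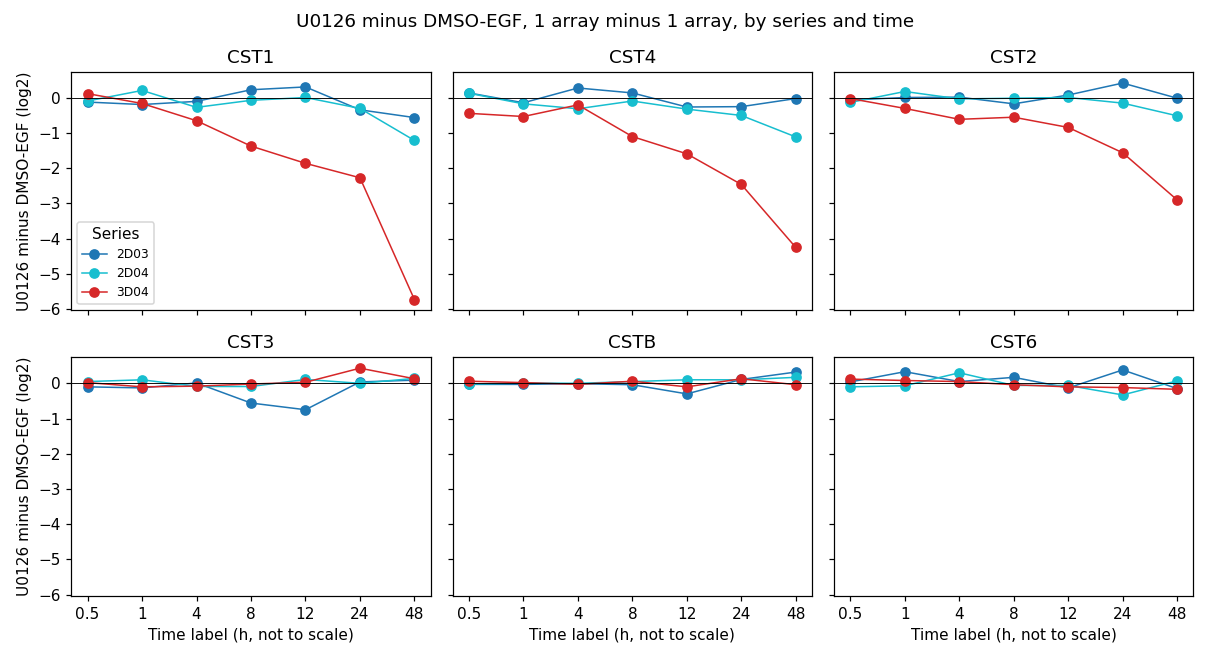
U0126 minus DMSO-EGF (log2, y axis), 1 array minus 1 array, against the time label in hours (x axis, not to scale) for each gene, with a line per series. CST1, CST4 and CST2 drop away from 0 in series 3D04 from 4 or 8 h on, reaching -5.73, -4.25 and -2.90 at 48 h, while CST3, CSTB and CST6 lie between -0.75 and 0.43, the lowest being CST3 at 12 h in series 2D03.

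CST3, CSTB and CST6 had smaller late differences in 3D. In 3D CST3 stood at 0.73 and 0.95 (24 and 48 h) in control, 0.59 and 1.01 in EGF, 0.67 and 0.86 in DMSO-EGF and 1.10 and 0.99 with U0126, so the inhibitor array was the highest at 24 h. Its late U0126 difference was 0.28 (SE 0.09) in 3D and 0.07 (SE 0.11) in 2D. In the middle window of 2D the mean was -0.23 (SE 0.09), made up of -0.43 in 2D03 and -0.02 in 2D04. The 2D03 value came from the 8 and 12 h arrays with the low actin ratio, where CST3 stood at -0.31 and -0.46 against 0.25 and 0.29 with DMSO-EGF. CSTB was also low on the 12 h array of that pair, at 0.10 against 0.40. Their part in these values was not tested.

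CSTB lay between 0.16 and 0.66 in 3D and between 0.00 and 0.78 in 2D. In 2D its U0126 arrays were the highest of the arms at 24 and 48 h in both series. They stood at 0.70 and 0.78 in 2D03 against 0.40 to 0.59 in the others. In 2D04 they stood at 0.48 and 0.50 against 0.27 to 0.49. There the control arm reached 0.49, close to the highest U0126 value of 0.50. The late difference from DMSO-EGF was 0.17 (SE 0.10) in 2D and 0.04 (SE 0.07) in 3D. CST6 stayed between -0.64 and -0.02 in 2D and -0.47 and -0.12 in 3D, with late differences of -0.01 (SE 0.10) and -0.14 (SE 0.10).

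**Figure D3:**
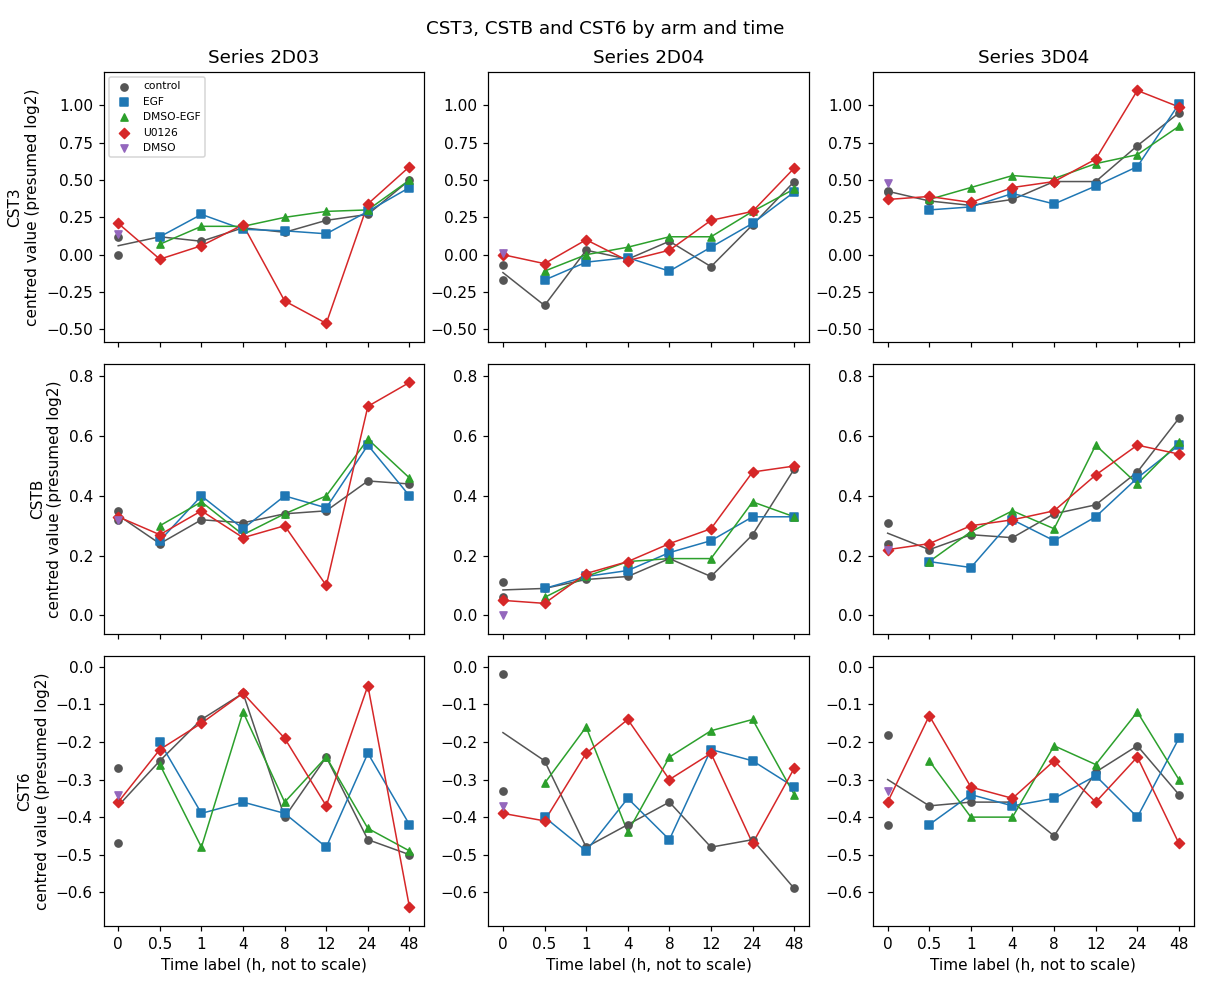
Centred value (presumed log2, y axis) of CST3, CSTB and CST6 against the time label in hours (x axis, not to scale), laid out as for CST1 but with a narrower y axis for each gene. CST3 reaches 0.86 to 1.01 at 48 h in series 3D04, its lowest U0126 point in series 2D03 is -0.46, and CST6 stays between -0.64 and -0.02.

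The EGF arrays themselves were not used to choose the genes, and their change from the early to the late window was tested with limma on 21 arrays. In 3D 5 of the 6 genes rose and CST6 did not pass, where 8.25% of all probe sets passed and 4.7% rose. CST4 rose 8.49-fold (log2 3.08, SE 0.38, adjusted p = 0.0003) and had the largest change in size of all probe sets. CST1 rose 8.31-fold (log2 3.06, SE 0.49, adjusted p = 0.0023), the third largest, and CST2 5.19-fold (log2 2.38, SE 0.32, adjusted p = 0.00051). CST3 rose less, 1.40-fold (log2 0.49, SE 0.12), with an adjusted p of 0.017. CSTB rose 1.27-fold (log2 0.34, SE 0.09), with an adjusted p of 0.023. CST6 stood at 0.09 (95% interval -0.13 to 0.30, adjusted p = 0.73). Each window held 2 arrays, whose times differ and serve as repeats. The error was pooled over the 3D and both 2D series, with a residual SD of 0.38 for CST4 and 0.49 for CST1. The late 3D arrays stood at 3.28 and 4.94 for CST4 and at 3.55 and 5.53 for CST1. The SE and p-values therefore do not measure the spread of the 3D arrays alone. The EGF arm shares its time course with the control and DMSO-EGF arms of its series, which the choice of genes used. Its rises, ranks and p-values are therefore not independent of the rise in those arms or of that choice.

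Single arrays mattered to the 3D counts. Without the 48 h EGF array CST2 and CST4 alone passed, CST1 standing at 2.06 (adjusted p = 0.096). Without the 0.5 h or the 1 h EGF array CST1, CST2 and CST4 passed and CST3 and CSTB did not.

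In 2D, CST3 was the 1 gene of 6 to pass in the EGF arm. It rose 1.23-fold (log2 0.30, SE 0.08, adjusted p = 0.03), where 9.14% of all probe sets passed. CST1 stood at 0.66 (SE 0.35, adjusted p = 0.29), CST4 at 0.47 (SE 0.27, adjusted p = 0.33), CST2 at 0.38 (SE 0.22, adjusted p = 0.35) and CSTB at 0.19 (SE 0.06, adjusted p = 0.065). By series, CST1 was 0.04 in 2D03 and 1.27 in 2D04, and CST4 was -0.13 and 1.06. The difference between the 2D series was 1.23 (95% interval -0.23 to 2.69, adjusted p = 0.63) for CST1 and 1.20 (0.08 to 2.31, adjusted p = 0.51) for CST4. Without the 24 h EGF array of repeat 2, CST1 passed in 2D (1.14, adjusted p = 0.021). CSTB passed without the 48 h EGF array of repeat 1 (0.23, adjusted p = 0.048). The call of CST3 was lost without the 0.5 h or the 48 h EGF array of either repeat, at 0.25 to 0.27.

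The rise was larger in 3D than in 2D for CST4 and CST2. The difference of the EGF-arm changes was 2.62 for CST4 (SE 0.46, adjusted p = 0.016), 2.00 for CST2 (SE 0.39, adjusted p = 0.023) and 2.40 for CST1 (95% interval 1.13 to 3.67, adjusted p = 0.063), with 0.83% of all probe sets passing. CST3 (0.19, adjusted p = 0.63), CSTB (0.15, adjusted p = 0.59) and CST6 (0.02, adjusted p = 0.97) did not pass. With 1 series in 3D, a difference between cultures cannot be told apart from one between series. The genes were also picked because CST1 and CST4 fell more with U0126 in 3D. The DMSO-EGF arm of that contrast shares its time course with the EGF arm, so this test is not independent of the choice. Without the 0.5, 1 or 48 h EGF array of 3D no cystatin passed, and without the 1 h EGF array of either 2D repeat CST4 alone passed. CST1 passed without the 48 h EGF array of 2D repeat 2 (2.88, adjusted p = 0.013) and without the 24 h EGF array of 3D (3.39, adjusted p = 0.001).

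**Figure D4:**
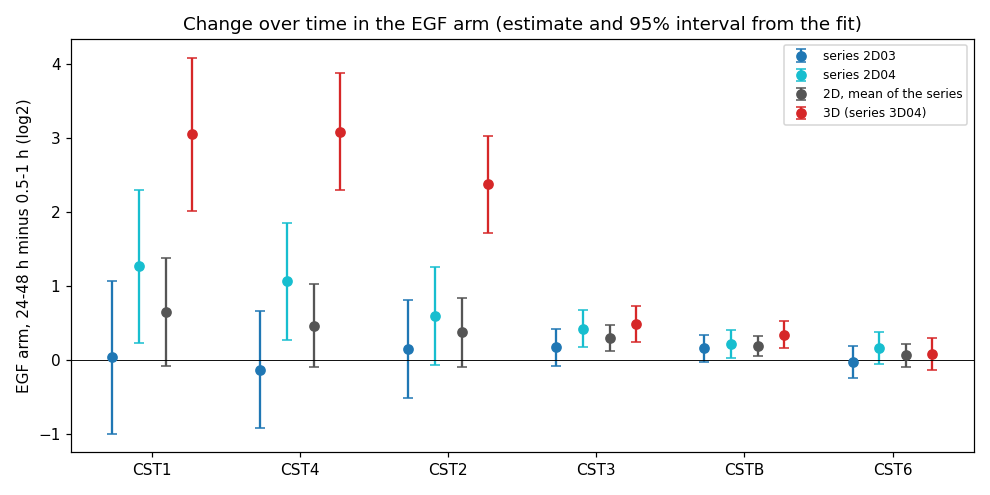
Change of each gene from 0.5-1 h to 24-48 h in the EGF arm (log2, y axis), as the fitted estimate with its 95% interval, for series 2D03, series 2D04, their mean and 3D. CST1, CST4 and CST2 stand at 3.06, 3.08 and 2.38 in 3D, and for these 3 genes series 2D04 lies between 3D and series 2D03.

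The level of the EGF arm over its 7 times also differed between 3D and 2D. With 1 series in 3D, this cannot be told apart from a difference between series. The times of a window serve as repeats and the error is pooled over the series, so the p-values measure the spread over times within series. The control and DMSO-EGF arms, which the choice of genes used, share the time course of the EGF arm. The levels and p-values of these genes are therefore not independent of that choice. CST1 was 5.91-fold higher in 3D than in the mean of the 2D series (log2 2.56, SE 0.23, adjusted p = 6.6e-08), CST4 4.20-fold (2.07, SE 0.18, adjusted p = 3.5e-08), CST2 1.88-fold (0.91, SE 0.15, adjusted p = 6.9e-05) and CST3 1.28-fold (0.35, SE 0.06, adjusted p = 4.6e-05). CST6 (0.01, adjusted p = 0.85) and CSTB (0.03, adjusted p = 0.63) did not pass. These 4 of 6 calls stand against 39.7% of all probe sets, and the 2D series differed from each other as often, at 39.5%. There CST1 was 0.70 (adjusted p = 0.044) and CST4 0.58 (adjusted p = 0.032) higher in 2D04 than in 2D03, while CST3 was 0.18 (adjusted p = 0.032) and CSTB 0.17 (adjusted p = 0.0085) higher in 2D03. In untreated cells at 0 h, the 2 control arrays of 3D stood at 1.09 and 1.54 for CST1 and both at 0.92 for CST4, and the 4 of 2D lay between -0.53 and -0.07 and between -0.35 and 0.14. Control arrays were used to choose the genes, so these values are a description.

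EGF itself, the vehicle and the pre-treatment alone gave no cystatin call. For EGF minus control, 0 of 6 genes passed in limma in any window of either culture, as did 0 of all probe sets (0%), with 145 to 760 probe sets at an unadjusted p under 0.05. The widest gap was that of CST1 in the middle window of 3D (log2 -0.57, 95% interval -1.59 to 0.46, adjusted p = 1). For DMSO-EGF minus EGF the count was also 0 of 6, and 0% of all, with 155 to 1008 probe sets at an unadjusted p under 0.05. In the middle window of 3D the DMSO-EGF arrays stood above the EGF arrays by 0.87 for CST1 (-0.15 to 1.90, adjusted p = 1), 0.64 for CST2 (0.14 to 1.15, adjusted p = 0.97) and 0.56 for CST4 (-0.23 to 1.35, adjusted p = 1). The DMSO-EGF arrays of this comparison are also the comparator of U0126. Against the EGF arrays in their place, the middle-window values of 3D shrank as given above, and the late 3D means with U0126 were -4.01 for CST1, -3.63 for CST4 and -2.50 for CST2. At 0 h in 2D, U0126 minus DMSO gave 0 of 6 and 0% of all, with 192 probe sets at an unadjusted p under 0.05, and CST1 stood at 0.13 (-0.77 to 1.03, adjusted p = 1). With a replicate block in 2D these comparisons again gave 0 of 6 and 0 of all probe sets in each window. At an unadjusted p under 0.05 there were then up to 1167 for EGF minus control, up to 593 for DMSO-EGF minus EGF and 448 at 0 h. Chance alone would put a share of 0.05 of all probe sets there. Every count without the block, in 2D and 3D, and all of those with it but the 1167 lay below that share. The main 2D fit has no series term, so offsets between the 2D series add to its error. These 0 counts therefore cannot show that EGF, the vehicle or the pre-treatment left the genes unchanged.

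Over the 32 arrays of 3D, CST1, CST4 and CST2 moved almost as a unit. Pearson's r was 0.97 for CST1 with CST4, 0.96 for CST1 with CST2 and 0.98 for CST2 with CST4, and CST3 followed CSTB at 0.91. Without the 24 and 48 h arrays (24 left) the first 3 were 0.85, 0.86 and 0.83. In 2D04 they were 0.93, 0.86 and 0.88, but 0.47, -0.12 and 0.30 without 24 and 48 h, and in 2D03, where the genes stayed flat, 0.15, -0.32 and -0.20. The points share arrays and time course, so these are descriptions. The CST2 probe set has the suffix that marks probes shared with other transcripts, and the salivary cystatins are alike in sequence. Whether transcripts of one gene were read by the probe set of another was not tested.

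The named genes that followed CST1 most closely over the 32 arrays of 3D were the glycolytic enzyme PGK1 (r = 0.97), the growth factor binding protein IGFBP3 (0.97), the enolase ENO2 (0.97), the plasminogen activator PLAT (0.97) and the keratin KRT19 (0.96). For CST4 they were ENO2 (0.97), PGK1 (0.97), the secreted glycoprotein STC1 (0.97), IGFBP3 (0.96) and PLAT (0.96). Over the 64 arrays of 2D, centred by series, they were ENPP1 (0.87), the fatty acid binding protein FABP4 (0.86), the water channel AQP1 (0.83), STC1 (0.78) and the EGFR ligand TGFA (0.78) for CST1, and FABP4 (0.87), ENPP1 (0.84), AQP1 (0.79), ADGRG1 (0.77) and SHISAL1 (0.76) for CST4. No gene followed CST6 as closely, the best being ADAM5 in 3D (0.63) and NFIL3 in 2D (0.49). These points share the same arrays and times.

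Relatives from the cystatin superfamily were also measured. Of 12 listed relatives 8 were measured, by 11 probe sets, and 0 passed with U0126 in the late window of 2D or of 3D, where 10.3% and 34.7% of all probe sets did, with medians of -0.03 and 0.00 against 0.01 and 0.03 for all probe sets. CSTA (stefin A), the intracellular relative of CSTB, stood at 0.30 (SE 0.13, adjusted p = 0.085) in 3D and -0.05 in 2D. CST5, the neighbour of CST2 on chromosome 20, stood at -0.05 in 3D (SE 0.13) and -0.03 in 2D (SE 0.12). In the EGF arm 0 of the 11 probe sets passed from early to late in either culture, against 9.14% of all probe sets in 2D and 8.25% in 3D. Centred values cannot show whether these relatives were expressed, so the 0 counts do not show that expressed genes stayed unchanged.

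The cathepsins and legumain, the proteases that cystatins inhibit, changed in both directions. In the late window of 3D, 7 of 17 probe sets rose with U0126 and 3 fell, for 12 genes with a median of 0.23 (0.03 for all probe sets). Of all probe sets 18.6% rose and 16.1% fell there, and 5.34% rose and 4.99% fell in the late window of 2D. The 2D fit has no series term and the 3D fit covers 1 series, so counts of 2D and 3D come from unlike fits. CTSO rose 6.82-fold (log2 2.77, SE 0.23, adjusted p = 2.2e-08), CTSH 1.77-fold (0.82, SE 0.11) and CTSB 1.56-fold by 1 of its probe sets (0.64, SE 0.09), while CTSC, the activator of granule serine proteases, fell by 0.73 (SE 0.08). In 2D 3 rose and 1 fell (median 0.05): CTSO 2.81-fold (1.49, SE 0.42, adjusted p = 0.015), the bone protease CTSK 1.48-fold (0.57, SE 0.14, adjusted p = 0.0054) and legumain (LGMN) 1.32-fold (0.40, SE 0.11, adjusted p = 0.0094) rose, and CTSC fell by 0.52 (SE 0.14, adjusted p = 0.014). Without the 24 h U0126 array of repeat 1 none of the 17 passed in 2D, without the 24 h DMSO-EGF array of repeat 2 there were 2, and without the 48 h DMSO-EGF array of 3D 5 passed there.

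Among inhibitors of other protease classes, 3 of 23 probe sets rose and 8 fell with U0126 late in 3D (13 of 15 listed genes, median -0.21), and 3 rose and 4 fell in 2D (median -0.20), against the same 18.6% and 16.1% of all probe sets in 3D and 5.34% and 4.99% in 2D. TFPI2, a Kunitz-type inhibitor of serine proteases, stood at log2 -4.00 (SE 0.26) and -3.58 (SE 0.19) by its 2 probe sets in 3D and at -1.49 (SE 0.23) and -1.56 (SE 0.37) in 2D, all of which passed. In 3D the metalloproteinase inhibitor TIMP3 fell by 1.89 (SE 0.15) and the serpin SERPINE2 by 1.47 (SE 0.14), each by the probe set with the smallest adjusted p. In 2D SPINT2 rose by 0.38 (SE 0.09) and SERPINB1 by 0.58 (SE 0.15). In the EGF arm of 3D, where the salivary cystatins rose, the TFPI2 probe sets stood at -0.05 (adjusted p = 0.95) and -0.17 (adjusted p = 0.82). The 2D count of 7 was 4 in 2D03 alone, 12 in 2D04 alone and 4 without the 48 h U0126 array of repeat 2. Here too the 2D and 3D counts come from unlike fits.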

How the data were processed

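RNA of MDA-MB-231 cells was measured on 96 Affymetrix arrays, 64 from 2D and 32 from 3D culture. The deposited table gives 1 value per probe set and array, taken here as log2. The submitters' processing notes name RMA, a method whose output is log2, but give neither log base nor centring. Array medians lay between -0.06 and 0.03, so only differences between arrays are used. Of 22930 probe sets 524 were array controls; 19415 had 1 gene symbol in the platform annotation, 125 had several and 2866 were not listed. The number of arrays limits the precision, and the labels do not say that repeats were separate cultures, so p-values measure the spread between these arrays. The highest correlation between a pair of arrays was 0.976, so no array was counted as a copy.

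Tests used lmFit and eBayes with a variance trend (limma 3.58.1, R 4.3.3), Benjamini-Hochberg adjusted over all 22406 probe sets, with a threshold of 0.05. The 2D fit had a mean for each group, the 3D fit had terms for time and for arm by window, the fit of both cultures had terms for series and time, and the EGF arm was fitted as means of series by window. Residual degrees of freedom were 33, 12, 45 and 12. Errors are standard errors (SE). Labels with 05h were taken to mean 0.5 h, and UO126 to mean U0126. The procedure was run on simulated data with independent noise around a flat mean for each probe set. Those data had no series offset and no time trend, so they cannot show how the 2D fit handles series. Members, lists and tests were chosen with earlier results of these data known. Named were the 6 genes, DUSP6, for each list up to 4 called probe sets by smallest adjusted p in the late windows, and the 5 named genes most correlated with CST1, CST4 and CST6; genes outside that rule (the relatives CSTA and CST5, and TFPI2 in the EGF arm) were named after their values were seen. Repeat numbers follow the series in 2D: over 465 pairs of 31 groups the repeats' deviations correlated at 0.197 to 0.79 (median 0.595), so the numbers pair the samples. Neighbouring genes come from RefSeq (GRCh38.p14). The alternatives were centring, quantile normalization, 1 probe set per gene, a filter on the SD, the replicate block, each series, the EGF arrays as comparator and each array left out.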

Additional observations from a re-analysis of the deposited data

Results flagged for a closer look

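The change of CST4 over time in the EGF arm was larger in 3D than in 2D by log2 2.62 (adjusted p = 0.016), in a test of the difference itself. For CST2 the same difference was 2.00 (adjusted p = 0.023). Neither test is independent of the choice of genes, which used a larger U0126 difference in 3D. With 1 series in 3D, culture and series cannot be told apart. Over the alternatives run, the adjusted p ranged from 3.8e-05 to 0.16 for CST4 and from 3e-06 to 0.15 for CST2. No array of the 2D control at 0 h, the 1 group of 4 that could be checked, stood apart for any of the 6 genes.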

How the results depend on the processing

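Centring, quantile normalization, 1 probe set per gene, the SD filter and the EGF comparator turned the sign of no late U0126 difference of CST1 or CST4. Leaving out single arrays moved these from -5.87 to -2.13 (CST1) and -4.60 to -2.11 (CST4) in 3D, from -0.82 to -0.39 and -0.75 to -0.19 in 2D, and from -5.27 to -1.52 and -4.13 to -1.64 for 3D minus 2D. CST2 late in 2D was 0.20 in 2D03, -0.33 in 2D04 and -0.33 against EGF.

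Of the 6 genes, the EGF-arm change in 2D passed for 1, or 2 with quantile normalization and 0 in series 2D03 alone or 2D04 alone, and 0 to 2 with single arrays left out. In 3D it passed for 5, or 2 to 5 with arrays left out, and the 3D minus 2D difference for 2, or 0 to 3. CST3 in 3D missed the threshold with quantile normalization (0.36, adjusted p = 0.06), and CST1 passed for 3D minus 2D with the SD filter (adjusted p = 0.035). The EGF-arm level passed for 4 genes under every alternative run.

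The repeat numbers pair the 2D samples, and series is already a term in the EGF-arm fit. With no replicate block there, 0 genes passed in 2D, 3 in 3D and 0 for 3D minus 2D (CST2 adjusted p = 0.078, CST4 adjusted p = 0.16). A replicate block changed no other call of these genes. Over all probe sets, the late 2D U0126 count of 2316 was 4670 with the replicate block, 5574 in 2D04 alone and 1482 with 1 probe set per gene. The late 3D count of 7767 was 4639 with 1 probe set per gene, and the 3D minus 2D count of 1899 was 1200 with quantile normalization, 1209 with 1 probe set per gene and 775 without the 48 h U0126 array of 3D. The EGF-arm counts of 2048, 1848 and 186 (2D, 3D, 3D minus 2D) were 692, 319 and 12 with no replicate block, and ranged over 773 to 2504, 49 to 3684 and 6 to 1772 with single arrays left out. The cause was not tested.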
